A study of Mus musculus with 2 samples.

Results

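Complement genes transcribed by the stroma of the mouse thymus are described here through 8 genes, C1ra, C1s1, Masp1, C4b, C2, Cfb, C3 and C7, of the 32285 genes counted in the files. They were chosen by name, with earlier results of these data known. Their unique molecular identifiers (UMIs) were followed through cell classes gated on marker genes that hold none of the 8. UMIs are the tags that count single captured mRNA molecules. The samples were 2 libraries, called library 1 and library 2, of mice with the genotype E2F_M11, in which CRISPR-Cas9 removed 2 E2F sites from the proximal promoter of Foxn1, the transcription factor that thymic epithelium depends on. Enzymes freed the cells of the thymus, magnetic beads took out the CD45+ cells, and a droplet kit counted transcripts at their 3' ends. Both libraries carry the deletion and no wild-type library was analysed here, so the comparisons are between cell classes within 1 genotype and say nothing of what the deletion does. The labels give neither the age, sex and strain of the mice, nor how many were pooled, nor whether the libraries came from separate animals or from more than 1 founder line. The p-values below therefore measure only how class differences vary between these libraries, with the shift between the libraries taken out. That variation may be technical.

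Complement is a set of secreted proteases, their substrates and their inhibitors that marks surfaces for uptake or lysis. The classical arm starts when C1q binds and activates the proteases C1r and C1s, which cleave C4 and C2 into a convertase that splits C3, and the lectin arm reaches the same step through collectins, ficolins and the MASP proteases. In the alternative arm, factor B joins a fragment of C3 to form another convertase, and all arms lead to the terminal proteins, C7 among them, that assemble into the membrane attack complex. The liver is the main source of the plasma proteins, and fibroblasts, mesothelium, endothelium and epithelium of many organs transcribe parts of the set locally.

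On GRCm38, the build the submitters' processing notes give as mm10, C1ra (ENSMUSG00000055172) lies at chr6:124512405-124523443 on the plus strand, and C1s1 (ENSMUSG00000038521) at chr6:124530345-124542359 on the minus strand. These genes for the C1r and C1s proteases converge with 6901 bases between them. C4b (ENSMUSG00000073418, chr17:34728380-34743882), which encodes complement C4, Cfb (ENSMUSG00000090231, chr17:34856374-34862518), which encodes factor B, and C2 (ENSMUSG00000024371, chr17:34862604-34898265), which encodes the protease subunit of the classical convertase, all lie on the minus strand of 1 stretch of chromosome 17. Only 85 bases separate the end of C2 from the start of Cfb, and a read running past the end of C2 could be counted for Cfb; this was not tested. C3 (ENSMUSG00000024164, chr17:57203970-57228136, minus strand) encodes the protein on which the arms meet. Masp1 (ENSMUSG00000022887, chr16:23449417-23520815, minus strand) encodes a protease of the lectin arm, and C7 (ENSMUSG00000079105, chr15:4988762-5063740, minus strand) a terminal component.

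RefSeq's table of start-site windows on GRCm38.p6 held 300-base entries for 4 of the 8 genes. They are shown because C1ra and C1s1 are neighbours whose levels ran most closely together over the classes of any pair of the 8 genes, and because C3 and C7 mark the central and the terminal step. Capitals mark matches to the letter patterns TTGCNNAA, named for C/EBP factors, TTCNNNGAA, named for STAT factors, and TATAAA, the TATA box, on either strand.
C1ra, chr6:124512371-124512670, plus strand: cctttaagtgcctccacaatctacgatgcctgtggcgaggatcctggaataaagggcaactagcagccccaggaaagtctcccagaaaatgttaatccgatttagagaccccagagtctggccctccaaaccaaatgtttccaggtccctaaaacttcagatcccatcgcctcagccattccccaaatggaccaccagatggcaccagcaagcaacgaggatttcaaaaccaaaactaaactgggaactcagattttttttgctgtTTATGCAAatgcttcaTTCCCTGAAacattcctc
C1s1, chr6:124542310-124542609, minus strand: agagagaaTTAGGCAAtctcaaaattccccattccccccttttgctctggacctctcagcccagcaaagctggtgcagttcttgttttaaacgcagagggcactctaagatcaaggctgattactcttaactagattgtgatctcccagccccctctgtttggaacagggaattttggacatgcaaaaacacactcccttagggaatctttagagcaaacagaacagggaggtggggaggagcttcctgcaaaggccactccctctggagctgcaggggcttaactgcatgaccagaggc
C3, chr17:57228087-57228386, minus strand: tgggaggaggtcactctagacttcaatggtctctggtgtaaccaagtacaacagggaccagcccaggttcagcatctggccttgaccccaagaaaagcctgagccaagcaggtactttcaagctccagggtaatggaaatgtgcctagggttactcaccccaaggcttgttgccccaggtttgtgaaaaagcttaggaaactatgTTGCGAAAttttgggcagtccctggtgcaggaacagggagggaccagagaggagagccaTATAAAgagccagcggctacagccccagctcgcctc
C7, chr15:5063724-5064023, minus strand: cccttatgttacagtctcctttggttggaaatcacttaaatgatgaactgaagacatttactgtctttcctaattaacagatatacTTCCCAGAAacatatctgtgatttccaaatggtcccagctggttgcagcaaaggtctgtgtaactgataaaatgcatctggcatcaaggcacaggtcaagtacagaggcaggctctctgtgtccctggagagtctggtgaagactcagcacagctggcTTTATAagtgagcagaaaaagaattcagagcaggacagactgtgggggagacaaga

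The C/EBP pattern occurred in the C1ra, C1s1 and C3 windows, and was present in 10.8% of all 32851 windows of this length in the table. It began at 16 in C1ra, -242 in C1s1 and -45 in C3, in bases from the start site, with negative values before it. Most of the C1ra window lies inside the gene as placed above, which begins at 124512405. The STAT pattern occurred in C1ra (at 32) and C7 (at -164), against 8.30% of all windows. The TATA pattern occurred in C3 (at 14) and, on the opposite strand, in C7 (at -6), against 13.6%. Both TATA matches thus lie next to or past the start site of the window. None of the 4 windows held an NF-kB pattern (GGGA, any 2 bases, then TTCC; 1.47% of all windows), an IRF pattern (GAAA, any 2 bases, then GAAA; 3.44%) or a GC box (GGGCGG; 35.7%). The matches found do not overlap one another. A second C1s1 window in the table, for another start site (chr6:124542272-124542571), held no match. These are descriptions of letters in fixed windows, not of factor binding.

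Library 1 held 41075328 UMIs over 5110 barcodes and library 2 held 42583831 over 19163, with 30 barcode sequences in common. After filters on genes, UMIs and mitochondrial share, 3588 and 8186 cells remained (13 with a shared barcode), with a median of 8727 and 1874 UMIs per cell, so library 2 is the shallower per cell. Gating gave 1552 and 1948 fibroblasts, 92 and 11 mesothelial cells, 17 and 10 mural cells (pericytes and smooth muscle), 84 and 55 endothelial cells, 796 and 507 epithelial cells, and 121 and 1160 thymocytes left after the depletion. Library 2 also held 119 erythroid cells (median 1373 UMIs per cell), of which library 1 had 1. The lineage classes carried their own markers, which the gate itself required, so the sums below describe the classes and do not test them. The summed level of the 9 fibroblast markers was 28500 and 25320 UMIs per 1000000 UMIs of the class (CPM, the unit used throughout) in fibroblasts, against 299 and 429 CPM in epithelium. The 10 mural markers summed to 18020 and 16540 CPM in mural cells, and the 10 endothelial markers to 8646 and 9517 CPM in endothelial cells. Mesothelial cells held all 8 of their markers in both libraries (5435 and 3862 CPM), with 16050 and 16700 CPM of the fibroblast markers as well. CPM values come from transcript 3' ends and are compared below for 1 gene between classes, not between genes.

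**Figure D1:**
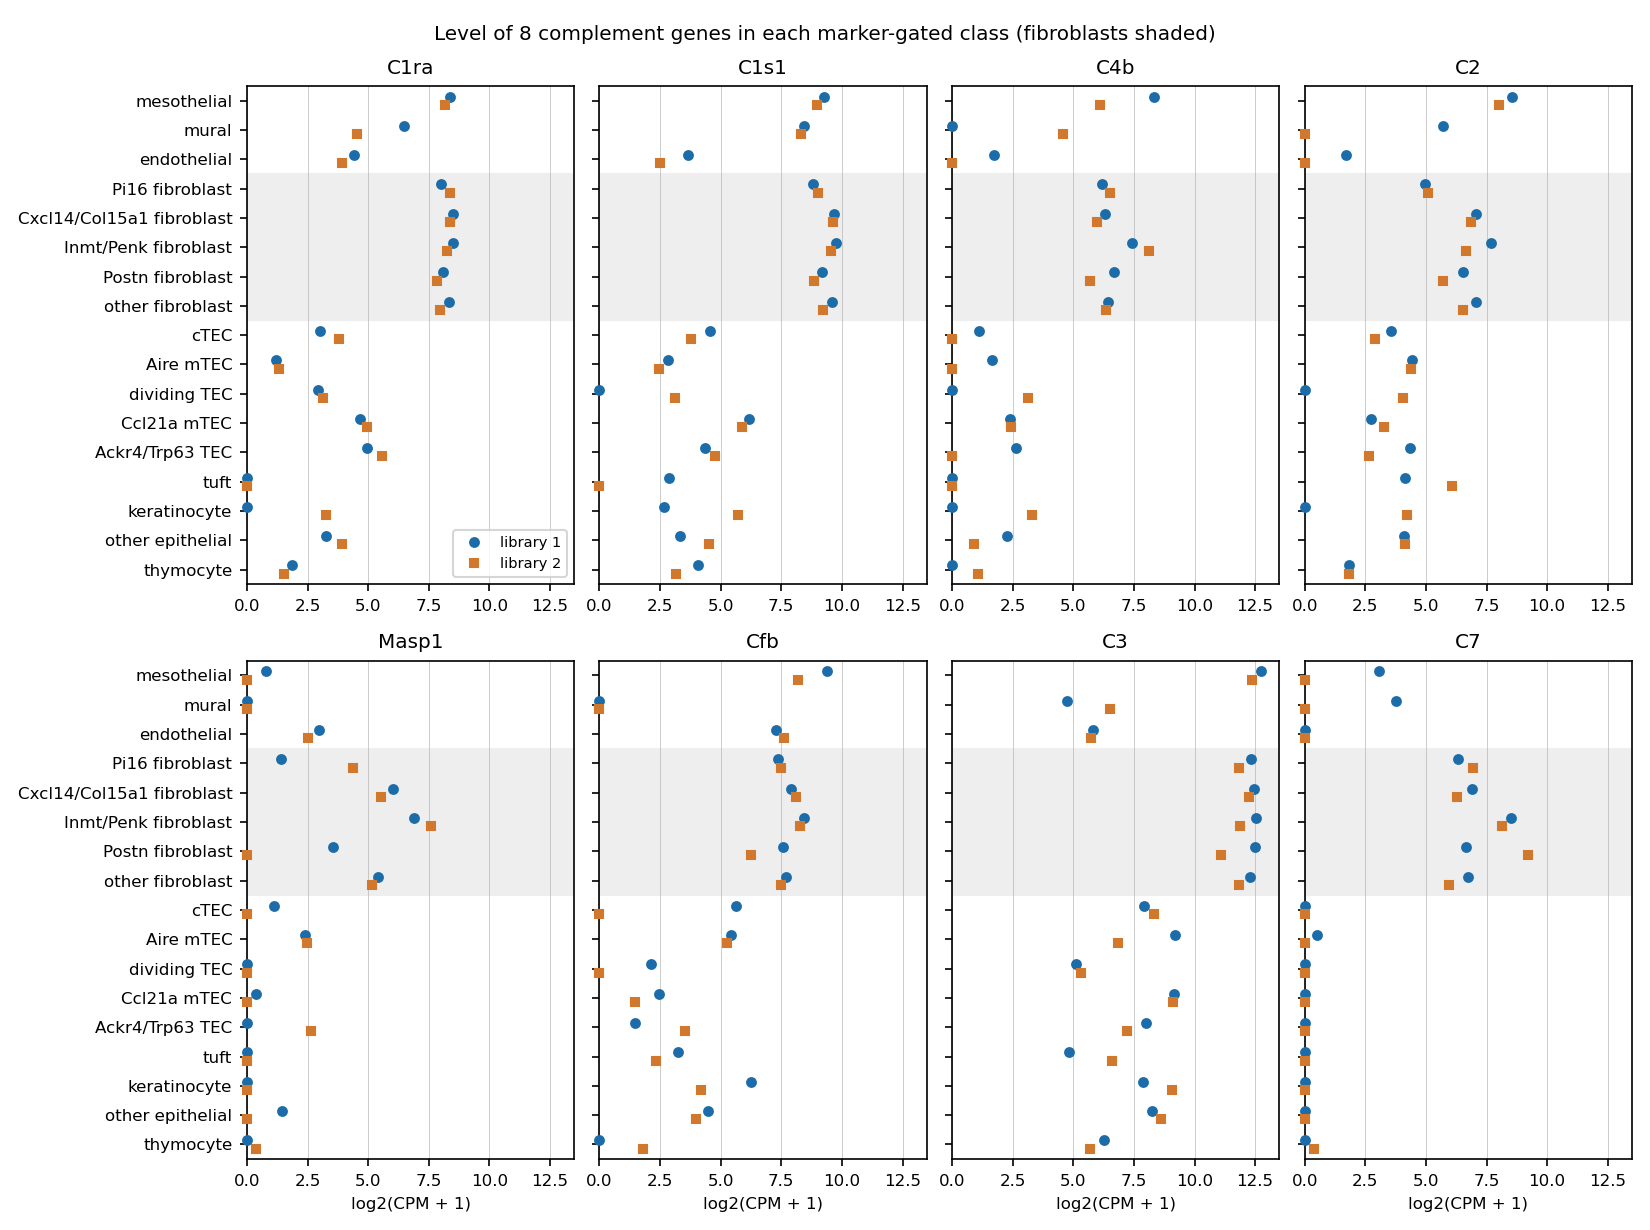
Level of each of the 8 genes, as log2(CPM + 1), in every gated class (down the page, fibroblast classes shaded), with library 1 as blue circles and library 2 as orange squares. C1ra, C1s1, C4b, C3 and C7 lie further right in all fibroblast classes than in any epithelial class, C7 is near 0 in epithelium, and Cfb stays high in endothelium (153 and 192 CPM).

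All 8 genes were higher in fibroblasts than in epithelium in both libraries. C7 had 1 UMI in all gated epithelium, and C2 had the smallest ratio of the 8 genes. In 1 edgeR quasi-likelihood fit over all classes, in which each lineage is the equally weighted mean of its classes, 8 of 8 genes were called higher at an adjusted p at or under 0.05, where 27.5% of the 11838 genes tested were called higher in fibroblasts. The median fitted log2 difference of the 8 genes was 5.85, against -0.05 over all genes. From summed UMIs, with any sum under 3 UMIs set to a floor of 3, the median was 4.5 against -0.19. Direction and call held for all 8 genes in each of the 9 processing alternatives tried. The genes were chosen with earlier results of these data known, so the count of 8 is not an independent test. Of 12 genes of the dissociation response, 10 were called higher in fibroblasts (summed level 8310 and 8438 CPM, against 5840 and 6262 CPM in epithelium), and of 12 genes inducible by acute-phase and interferon signals, 5 were called higher and 4 lower (1035 and 960 CPM, against 2849 and 2380 CPM); the part of either list was not tested.

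Among the initiating proteases, C1ra stood at 311 and 296 CPM in fibroblasts, against 12.4 and 16.3 CPM in epithelium. Summed over both libraries, this is 22.8-fold higher (95% interval of the ratio 19.8 to 26.3, from counting error only, as for all intervals below; edgeR adjusted p = 4.62e-18). C1s1 stood at 664 and 635 CPM in fibroblasts, against 29.4 and 27.5 CPM in epithelium, 22.6-fold higher (20.6 to 25.0; edgeR adjusted p = 6.03e-18). For both genes the lowest fibroblast sum lay above the highest epithelial one. Masp1 was sparse, at 34.9 and 39.3 CPM in fibroblasts, against 1.46 and 1.02 CPM in epithelium, where 20 UMIs were counted in all (27.1-fold, 17.4 to 44.5; edgeR adjusted p = 1.64e-05). Its classes overlapped: the Postn fibroblasts of library 2 held no Masp1 UMI, and the Pi16 fibroblasts of library 1 (1.62 CPM) lay below the Aire mTEC of both libraries (4.34 and 4.54 CPM), a medullary epithelial state described below.

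C4b, the substrate of C1s, stood at 80.5 and 84.0 CPM in fibroblasts, against 3.11 and 2.03 CPM in epithelium (28.9-fold higher, 21.3 to 40.3; edgeR adjusted p = 6.22e-13). C2, which joins cleaved C4, stood at 95.2 and 82.9 CPM in fibroblasts, against 12.8 and 17.6 CPM in epithelium (6.48-fold higher, 5.62 to 7.51; edgeR adjusted p = 1.51e-10). The C4b groups did not overlap over classes and libraries, and the C2 groups did, through the tuft cells of library 2 at 67.3 CPM. Cfb, the protease of the alternative convertase, stood at 206 and 209 CPM in fibroblasts, against 21.3 and 14.2 CPM in epithelium (10.7-fold higher, 9.45 to 12.0; edgeR adjusted p = 1.95e-13). Its groups came close without overlap, at 75.7 CPM in the Postn fibroblasts of library 2 and 75.3 CPM in the keratinocyte-like cells of library 1.

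C3 had 77588 and 30175 UMIs in the fibroblasts of libraries 1 and 2, or 4640 ± 937 CPM (SD, n = 2), against 381 ± 52.8 CPM in epithelium (SD, n = 2). It was 12.2-fold higher in fibroblasts (11.9 to 12.5; edgeR adjusted p = 1.13e-14), and the lowest fibroblast class (2158 CPM) lay above the highest epithelial one (580 CPM). The epithelial C3 level of library 2 (343 CPM) lay below the 655 CPM of its erythroid cells, a class of another lineage. C7 stood at 108 and 95.2 CPM in fibroblasts, with 2305 UMIs in all against 1 UMI in epithelium, a ratio of 1544 with an interval from 277 to 61000 (edgeR adjusted p = 8.1e-11). The fitted log2 differences, from 2.99 (SE 0.24) for C2 to 6.03 (SE 0.18) for C1ra with C7 left aside, are larger than the summed ratios; the fit weights each class equally, and several epithelial classes held few or no UMIs of a gene.

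**Figure D2:**
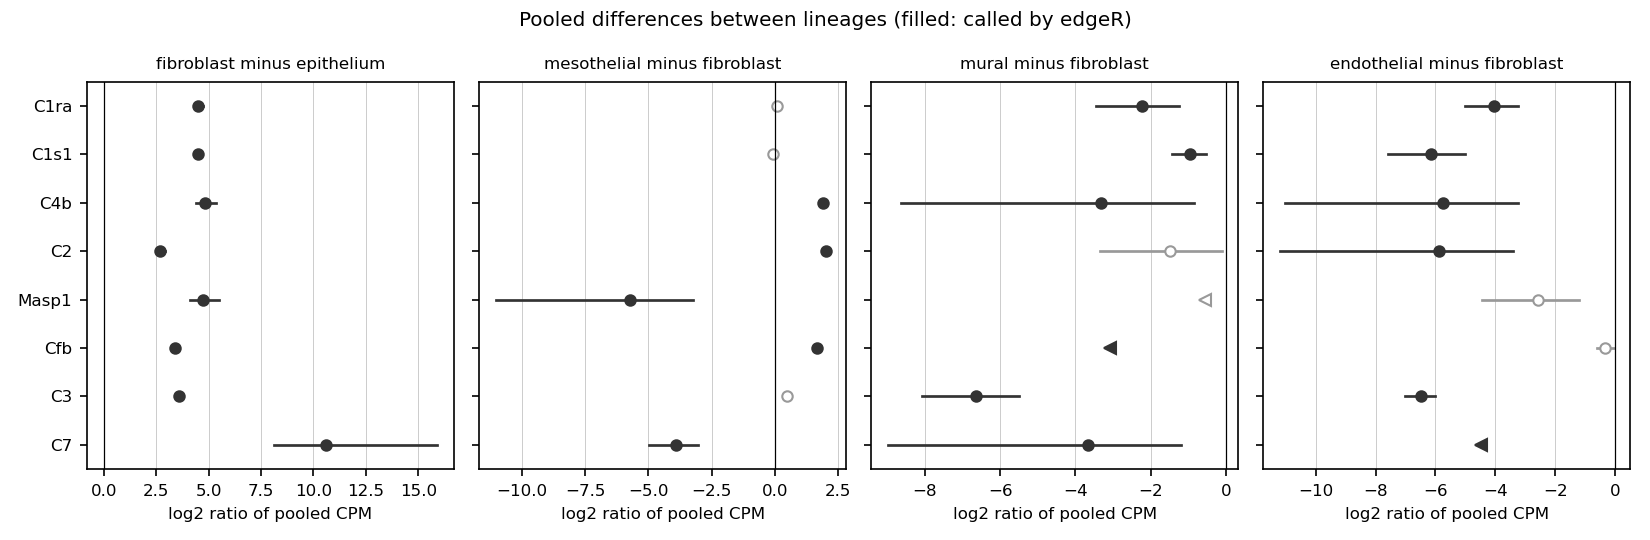
Log2 ratio of summed CPM for each of the 8 genes in 4 lineage comparisons, with bars for the exact 95% counting interval, filled symbols for genes called by edgeR and triangles for bounds where 1 side had 0 UMIs. All 8 genes are right of 0 for fibroblast over epithelium, and Cfb is the gene closest to 0 for endothelial over fibroblast (1.25-fold lower).

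Mesothelial cells, which cover the thymic capsule, had more C2 than fibroblasts, more C4b and Cfb in library 1, and little or no C7 and Masp1. Of the 8 genes, 3 were called higher (C2, C4b and Cfb) and 2 lower (C7 and Masp1) in mesothelium than in fibroblasts, where 8.34% of all genes tested were called higher and 7.12% lower. C2 stood at 372 and 260 CPM in mesothelial cells, above every fibroblast class, against 95.2 and 82.9 CPM in fibroblasts (log2 difference 1.83, SE 0.29; edgeR adjusted p = 4.48e-05), and it was called in all 7 alternatives that gave this comparison a value.

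C4b stood at 321 and 68.5 CPM in mesothelial cells, against 80.5 and 84.0 CPM in fibroblasts (log2 difference 1.26, SE 0.32; edgeR adjusted p = 0.00609). This difference rested on library 1: without that library it was -0.31, and without library 2 it was 1.74. Cfb stood at 665 and 288 CPM in mesothelial cells, against 206 and 209 CPM in fibroblasts (log2 difference 1.17, SE 0.30; edgeR adjusted p = 0.00768), and was 0.66 without library 1 and 1.58 without library 2. Both calls held in 5 of 7 alternatives, with an edgeR or DESeq2 adjusted p of up to 0.189 for C4b and 0.0956 for Cfb. In the mesothelial cells the 12 genes of the inducible list summed to 2223 CPM in library 1 and 890 CPM in library 2, and the 12 genes of the dissociation response to 12500 and 5204 CPM; their part in these differences was not tested.

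C7 had 10 UMIs in mesothelial cells, all in library 1 (7.26 and 0 CPM), against 108 and 95.2 CPM in fibroblasts, which is 15.0-fold lower (8.16 to 31.4; edgeR adjusted p = 0.000433); the call held in 6 of 7 alternatives, with adjusted p up to 0.187. Masp1 had 1 UMI in mesothelial cells (52.7-fold lower, 9.44 to 2085; edgeR adjusted p = 0.0104). That UMI lay in library 1 (0.726 CPM), where Pi16 fibroblasts were also low, at 1.62 CPM. In library 2 a floor of 3 UMIs equals 41.1 CPM, above the 39.3 CPM of its fibroblasts, so the 0 UMIs there decide nothing. C3 stood at 6768 and 5355 CPM in mesothelial cells, against 5303 and 3978 CPM in fibroblasts, with a log2 difference of 0.31 (SE 0.38) that missed the threshold (edgeR adjusted p = 0.721). C1s1 (-0.27, SE 0.28) and C1ra (-0.02, SE 0.22) also missed it (edgeR adjusted p = 0.648 and 1.0), which does not show that the levels are alike. Library 2 rests on 11 mesothelial cells, and in it 1 cell held 56.8% of the C1s1 UMIs and 52.6% of the C2 UMIs. The 9 epithelial markers summed to 758 and 2013 CPM in mesothelial cells, against 49.0 and 232 CPM in fibroblasts, and their part was not tested.

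Mural cells had C1s1 at a lower level than fibroblasts and few UMIs of the remaining genes. C1s1 stood at 344 and 316 CPM in mural cells, against 664 and 635 CPM in fibroblasts (log2 difference -1.37, SE 0.36; edgeR adjusted p = 0.0127), and C1ra at 89.2 and 22.5 CPM, from 8 UMIs, against 311 and 296 CPM (-2.64, SE 0.42; edgeR adjusted p = 0.000101). Of the 8 genes, 6 were called lower in mural cells and none higher, where 6.02% of all genes tested were called lower. C3 had 6 UMIs in mural cells (25.5 and 90.1 CPM), 99.3-fold lower (45.6 to 271; edgeR adjusted p = 7.45e-07), beside 74.9 and 50.7 CPM in thymocytes. Cfb had 0 UMIs in mural cells and was at least 8.47-fold lower, by a floor of 3 UMIs over both libraries (edgeR adjusted p = 0.000553). C4b and C7 had 1 UMI each (10.0-fold lower, 1.80 to 397, and 12.7-fold lower, 2.29 to 504; edgeR adjusted p = 0.0372 and 0.0455). C2 (4 UMIs) and Masp1 (0 UMIs) missed the threshold. In mural cells 5 of the 9 fibroblast markers were detected in each library, at a summed 1466 and 518 CPM, against 28500 and 25320 CPM in fibroblasts. The calls for C4b (5 of 7 alternatives), C7 and C1s1 (6 of 7 each) did not hold throughout, with adjusted p up to 0.39. The 12 dissociation response genes summed to 17880 and 27670 CPM in mural cells, against 8310 and 8438 CPM in fibroblasts, with 4 called higher and 1 lower; their part in these differences was not tested.

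In endothelial cells Cfb was the 1 member with more than 35 UMIs. Cfb stood at 153 and 192 CPM in endothelial cells, against 206 and 209 CPM in fibroblasts, with a log2 difference of -0.40 (SE 0.35; edgeR adjusted p = 0.513), and a summed ratio of 1.25-fold lower (1.03 to 1.52). In endothelium 41.7% and 38.2% of cells held a Cfb UMI, against 0% and 1.38% of thymocytes and 5.04% of the erythroid cells of library 2, at medians of 4655.5 and 3072 UMIs per cell in endothelium and 2416 and 2720.5 in thymocytes. Of the 8 genes, 6 were called lower in endothelium and none higher, where 12.4% of all genes tested were called lower.

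C3 stood at 54.9 and 51.4 CPM in endothelial cells (90.2-fold lower, 64.9 to 130; edgeR adjusted p = 3.28e-08), beside 74.9 and 50.7 CPM in thymocytes. C1s1 had 6 UMIs (71.0-fold lower, 32.6 to 193; edgeR adjusted p = 1.21e-09) and C1ra 12 UMIs (16.6-fold lower, 9.50 to 32.1; edgeR adjusted p = 5.16e-09). C4b and C2 had 1 UMI each (53.2-fold lower, 9.54 to 2102, and 59.3-fold lower, 10.6 to 2342; edgeR adjusted p = 2.79e-05 and 1.92e-05), and C7 had none, at least 22.5-fold lower (edgeR adjusted p = 0.000137). Masp1, with 4 UMIs in endothelium, missed the threshold (edgeR adjusted p = 0.111).

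Within fibroblasts, 7 of the 8 genes had UMIs in every gated subtype of both libraries, and C2, Masp1 and C4b differed between subtypes. The 4 subtypes were Pi16 fibroblasts (437 and 373 cells; Pi16 and Dpp4 mark fibroblasts of the capsule and vessel sheaths), Cxcl14/Col15a1 fibroblasts (540 and 400), Inmt/Penk fibroblasts (56 and 51) and Postn fibroblasts (31 and 15). Each was set against the mean of the remaining subtypes, and 488 and 1109 fibroblasts without a subtype were kept apart. The Postn fibroblasts also held 2292 and 4910 CPM of the Pi16 list, beside 4851 and 3130 CPM of their own, so in library 2 the Pi16 list was the higher of the pair. Over the 32 gene-by-subtype comparisons 3 calls were made, and the share of all genes called is given with each subtype below.

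C2 stood at 29.9 and 32.9 CPM in Pi16 fibroblasts, against 133 and 114 CPM in Cxcl14/Col15a1, 202 and 100 CPM in Inmt/Penk and 91.7 and 50.5 CPM in Postn fibroblasts. Pi16 fibroblasts were the lowest in both libraries without overlap (log2 difference -1.73, SE 0.35; edgeR adjusted p = 0.00188), and the call held in 9 of 9 alternatives. This was the 1 member called in Pi16 fibroblasts, where 3.29% of all genes tested were called lower. The 12 dissociation response genes summed to 6263 and 7482 CPM in Pi16 fibroblasts, against 9753 and 10100 CPM in Cxcl14/Col15a1, 9508 and 6377 CPM in Inmt/Penk and 6100 and 8809 CPM in Postn fibroblasts. Of these 12 genes, 2 were called lower in Pi16 fibroblasts and none higher, and the part of this list was not tested.

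Masp1 stood at 117 and 193 CPM in Inmt/Penk fibroblasts, against 1.62 and 20.0 CPM in Pi16, 63.7 and 45.4 CPM in Cxcl14/Col15a1 and 10.8 and 0 CPM in Postn fibroblasts. The Inmt/Penk values lay above all others (log2 difference 3.18, SE 0.53; edgeR adjusted p = 0.00599), and the call held in 8 of 9 alternatives (DESeq2 adjusted p = 0.0659). Single cells held 18.2% and 20.4% of the 55 and 54 UMIs. The low level in Pi16 fibroblasts, from 9 and 39 UMIs, missed the threshold (log2 difference -2.23, SE 0.76; edgeR adjusted p = 0.0907).

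C4b stood at 168 and 279 CPM in Inmt/Penk fibroblasts, against 71.4 and 89.4 CPM in Pi16, 78.0 and 61.3 CPM in Cxcl14/Col15a1 and 103 and 50.5 CPM in Postn fibroblasts. The groups did not overlap and the difference passed narrowly (log2 difference 1.5, SE 0.34; edgeR adjusted p = 0.0455), but only 3 of 9 alternatives kept the call, with adjusted p up to 0.582. The 2 members called in Inmt/Penk fibroblasts stand beside 0.431% of all genes tested that were called higher there. C7 (362 and 283 CPM), C2 and Cfb (342 and 312 CPM) missed the threshold in the same subtype (edgeR adjusted p = 0.266, 0.159 and 0.53).

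C7 in Postn fibroblasts stood at 99.8 CPM in library 1 and 593 CPM in library 2, where 1 cell held 62.2% of 37 UMIs and 63.8% of 47 UMIs, so these values belong to few cells. No member was called in Postn fibroblasts (0.22% of all genes tested were called there) or in Cxcl14/Col15a1 fibroblasts (3.09%). C3 ran from 5105 to 5849 CPM over the 4 subtypes of library 1 and from 2158 to 4845 CPM in library 2. C1s1 was lowest in Pi16 fibroblasts in library 1 (447 CPM) and in Postn fibroblasts in library 2 (454 CPM), and no difference of C3, C1s1 or C1ra between subtypes was called.

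**Figure D3:**
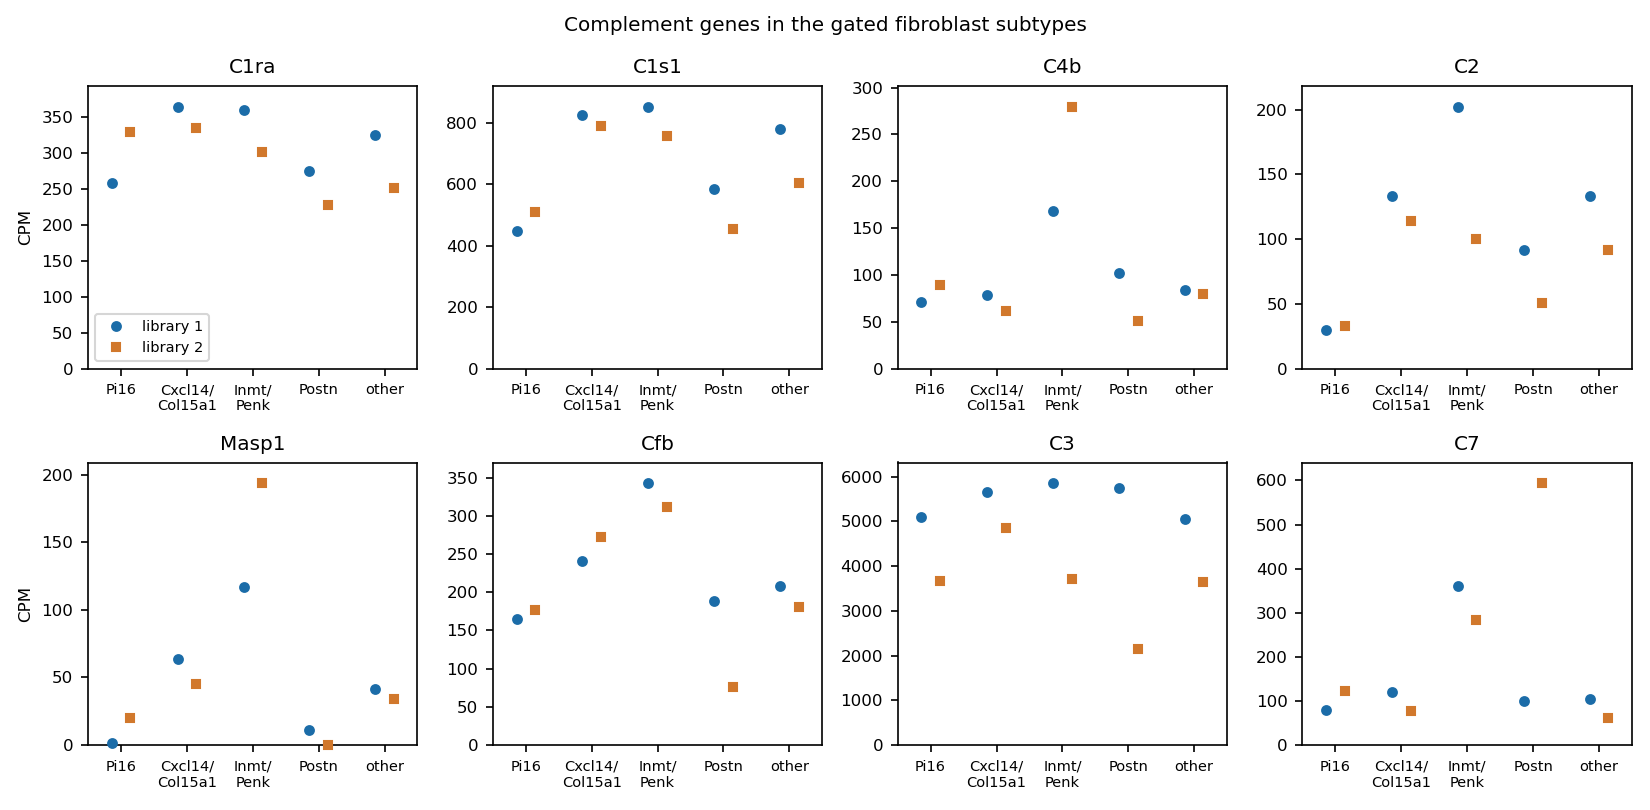
CPM of each of the 8 genes in the fibroblast subtypes and in fibroblasts without a subtype, 1 panel per gene on its own axis from 0, with library 1 as blue circles and library 2 as orange squares. C2 is lowest in Pi16 fibroblasts (29.9 and 32.9 CPM), and Masp1 and C4b are highest in Inmt/Penk fibroblasts.

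Among epithelial states, C3, C1s1 and C1ra were called higher in Ccl21a mTEC and Cfb in Aire mTEC, each against the mean of the other states; in library 2 these Ccl21a levels lay under those of erythroid cells, given below. A total of 7 states were compared, each with the mean of the others: cortical cells (cTEC), Aire, dividing, Ccl21a and Ackr4/Trp63 cells, tuft and keratinocyte-like cells, where mTEC stands for medullary epithelium and TEC for thymic epithelium. Calls numbered 12 over 56 gene-by-state comparisons. In the states where a member was called higher, 9.89% (keratinocyte-like cells) to 19.5% (Aire mTEC) of all genes tested were too. In those with a member called lower, 4.97% (tuft cells) and 8.15% (dividing TEC) of all genes were. The count is thus not read as a trait of the members. C4b, C7 and Masp1 were called in none of the states, and C7 was at 0 UMIs in every state but the Aire mTEC of library 1.

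Ccl21a mTEC, which make the chemokine that draws maturing thymocytes into the medulla, had the clearest set: C3, C1s1 and C1ra were called higher, where 11.5% of all genes tested were called higher in this state. C3 stood at 565 and 549 CPM in Ccl21a mTEC (log2 difference 1.91, SE 0.36; edgeR adjusted p = 0.000582), and C1s1 at 70.7 and 57.8 CPM, above every other state (2.87, SE 0.34; edgeR adjusted p = 2.41e-06). C1ra stood at 24.7 and 29.8 CPM in Ccl21a mTEC (3.09, SE 0.41; edgeR adjusted p = 1e-05) and at 29.9 and 46.8 CPM in Ackr4/Trp63 TEC, just above every other state (3.48, SE 0.51; edgeR adjusted p = 3.51e-05; 10.5% of all genes called higher there). All 4 of these calls held in 8 of 8 alternatives.

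In Ccl21a mTEC, 38.7% and 42.1% of cells held a C3 UMI once each cell was thinned to 1000 UMIs, against 18.2% and 9.83% of thymocytes and 37.8% of the erythroid cells of library 2. Those erythroid cells stood at 655 CPM of C3, 68.9 CPM of C1s1 and 34.5 CPM of C1ra, from 133, 14 and 7 UMIs, each above the Ccl21a mTEC of the same library. The Ccl21a levels of library 2 are thus no higher than those of a class of another lineage, and the part of free RNA in the 3 calls was not tested. For every 100 C3 UMIs, Ccl21a mTEC held 34.4 and 68.7 UMIs of Dcn, a collagen-binding proteoglycan of fibroblasts. Fibroblasts held 230 and 341, thymocytes 93.1 and 235, and the erythroid cells of library 2 held 226. Dcn is also among the fibroblast markers of the gate, which limited those markers in epithelium, thymocytes and erythroid cells. The Dcn counts and fibroblast marker sums given here are thus partly set by the gate. They cannot gauge how much fibroblast RNA a class held. In Ackr4/Trp63 TEC the Dcn count was 420 and 1111 per 100 C3 UMIs, and the 9 fibroblast markers summed to 1179 and 1706 CPM, against 311 and 485 CPM in Ccl21a mTEC; the C1ra level of library 2 (46.8 CPM) stood beside 34.5 CPM in erythroid cells, and the part of fibroblast RNA in the C1ra call was not tested. The dissociation list had 9 of 12 genes called higher in Ccl21a mTEC and 7 of 12 in Ackr4/Trp63 TEC, and its part in these calls was not tested.

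Aire mTEC, which transcribe many tissue-restricted genes, had Cfb at 42.1 and 37.8 CPM (log2 difference 2.46, SE 0.45; edgeR adjusted p = 0.000258; held in 8 of 8 alternatives), where 19.5% of all genes tested were called higher. Cfb UMIs were found in 36.6% and 35.3% of Aire mTEC, at medians of 20088.5 and 19119 UMIs per cell, and in 7.14% and 0% after thinning to 1000 UMIs. The erythroid cells of library 2 stood at 29.6 CPM of Cfb, from 6 UMIs. Gated microfold and secretory epithelial cells were too few to enter the comparison. Microfold cells (15 and 7) stood at 38.5 and 47.6 CPM of Cfb, from 9 and 5 UMIs. Secretory cells (8 and 3) stood at 7.58 and 51.0 CPM, from 1 and 2 UMIs. A Cfb level like that of Aire mTEC was thus not particular to that state. A list of 8 macrophage and dendritic cell genes summed to 743 and 785 CPM in Aire mTEC, against 61.5 and 190 CPM in Ccl21a mTEC and 101 and 23.8 CPM in tuft cells, and the inducible list to 3840 and 2565 CPM in Aire mTEC, against 2849 and 2380 CPM in all epithelium; the part of either list was not tested. C3 in Aire mTEC stood at 580 CPM in library 1 and 114 CPM in library 2, and its call (1.22, SE 0.38; edgeR adjusted p = 0.0212) held in 3 of 8 alternatives, with adjusted p up to 0.274, and rested on library 1: the difference was -0.79 without library 1 and 2.03 without library 2. In library 1 the 10% of Aire mTEC richest in C3 held 74.3% of the C3 UMIs, and a single cell 17.6%.

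Tuft cells, chemosensory cells named for their apical microvilli, had C2 at 16.8 and 67.3 CPM, from 8 and 17 UMIs (log2 difference 1.90, SE 0.58; edgeR adjusted p = 0.0253; held in 6 of 8 alternatives), where 11.5% of all genes tested were called higher and 4.97% lower. The level of library 1 lay below Aire mTEC (20.4 CPM) and Ackr4/Trp63 TEC (19.3 CPM) of that library, and the log2 difference was 2.36 without library 1 and 1.34 without library 2. C3 was lower in tuft cells, at 27.3 and 95.04 CPM (-2.09, SE 0.56; edgeR adjusted p = 0.0102), and C1ra had 0 UMIs (edgeR adjusted p = 0.0155; held in 4 of 8 alternatives). Dividing TEC had C3 at 33.5 and 38.8 CPM, from 10 and 5 UMIs (-2.95, SE 0.65; edgeR adjusted p = 0.00215), where 8.15% of all genes were called lower; these levels are at or under the 74.9 and 50.7 CPM read in thymocytes.

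Cfb was also called higher in cTEC (48.4 and 0 CPM; 9.95% of all genes called higher there) and in keratinocyte-like cells (75.3 and 17.4 CPM; 9.89%), with edgeR adjusted p = 0.0218 and 0.015, and held in 6 of 8 and 7 of 8 alternatives. In cTEC 1 cell of library 1 held 82.9% of 41 UMIs, and without that library the log2 difference was -1.49. In keratinocyte-like cells 1 cell of library 1 held 71.4% of 14 UMIs, and library 2 had 2 UMIs. C3 also reached 237 and 539 CPM in keratinocyte-like cells, which missed the threshold.

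**Figure D4:**
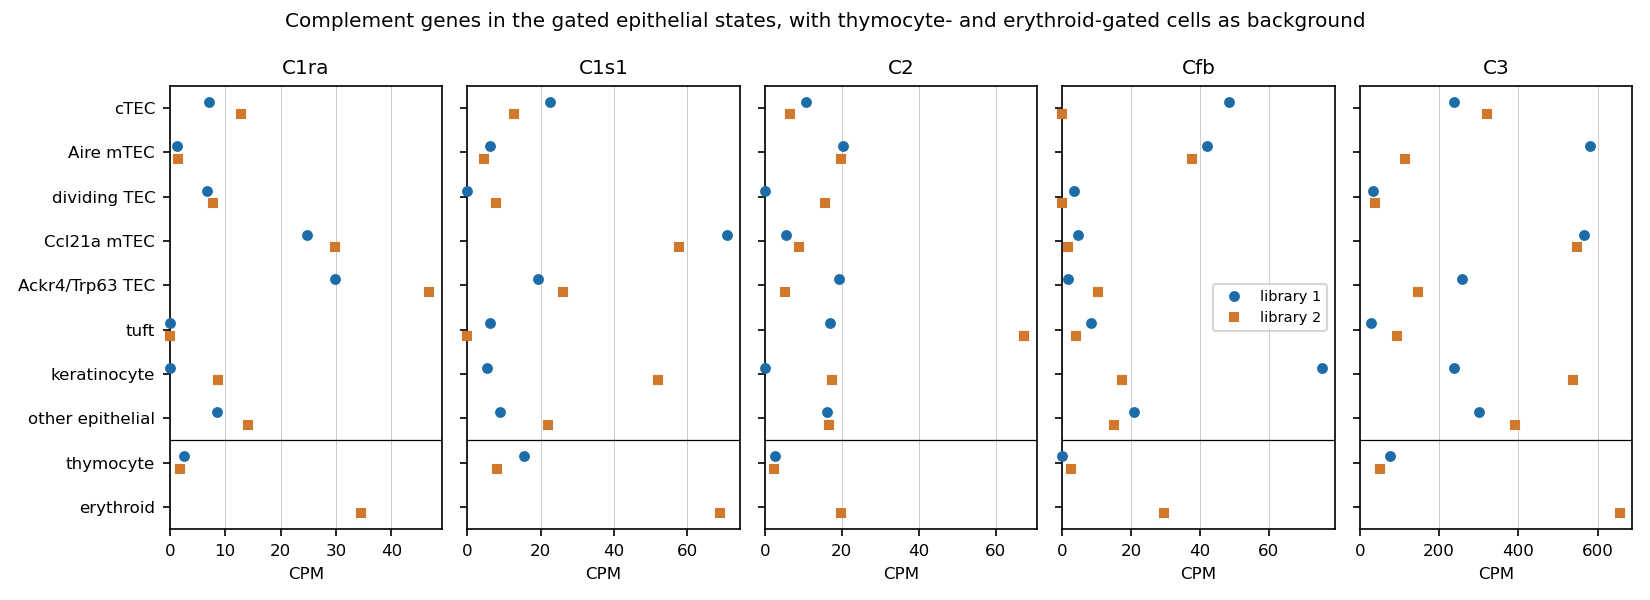
CPM of C1ra, C1s1, C2, Cfb and C3 in the epithelial states and, under the line, in thymocytes and in the erythroid cells of library 2, 1 panel per gene on its own axis from 0, with library 1 as blue circles and library 2 as orange squares. C1s1 is highest among the states in Ccl21a mTEC (70.7 and 57.8 CPM) but at 68.9 CPM in erythroid cells, and the C3 value of Aire mTEC splits into 580 and 114 CPM.

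The share of fibroblasts that held each transcript showed whether a level came from many cells or a few. At 1000 UMIs per cell, C3 was found in 93.1% of fibroblasts of library 1 (exact binomial 95% interval 91.7 to 94.3) and 86.6% of library 2 (85.0 to 88.0), against 28.3% and 32.2% of epithelial cells. Without thinning the fibroblast shares were 98.8% and 94.4%. The classes of other lineages held it too, in 18.2% and 9.83% of thymocytes and in 37.8% of the erythroid cells of library 2 (29.1 to 47.2; 50.4% without thinning), so the epithelial C3 share of library 2 lay between them and is not told apart from free RNA.

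C1s1 was found in 46.7% and 39.4% of fibroblasts after thinning, against 3.77% and 3.75% of epithelial cells, 3.31% and 2.41% of thymocytes and 7.56% of the erythroid cells of library 2, so the share over all epithelium is close to or under background. C1ra was in 25.6% and 22.3% of fibroblasts and Cfb in 17.3% and 15.5%. C4b was in 5.80% and 5.29% of fibroblasts, C7 in 8.12% and 5.49%, C2 in 9.73% and 7.14%, and Masp1 in 3.80% and 3.03%.

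The UMIs of C2 were spread over more fibroblasts than those of C4b: 1393 and 629 UMIs of C2 lay in 47.4% and 20.7% of fibroblasts, and 1178 and 637 UMIs of C4b in 25.2% and 13.8%. The 10% of fibroblasts richest in the gene held 76.2% and 88.4% of the C4b UMIs and 68.5% and 87.3% of the C7 UMIs, against 43.3% and 66.8% of those of C2. For C3 the richest 10% held 28.0% and 44.4%, and for C1s1 24.7% and 42.9%, the most even of the set in both libraries. No test was made of these shares.

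**Figure D5:**
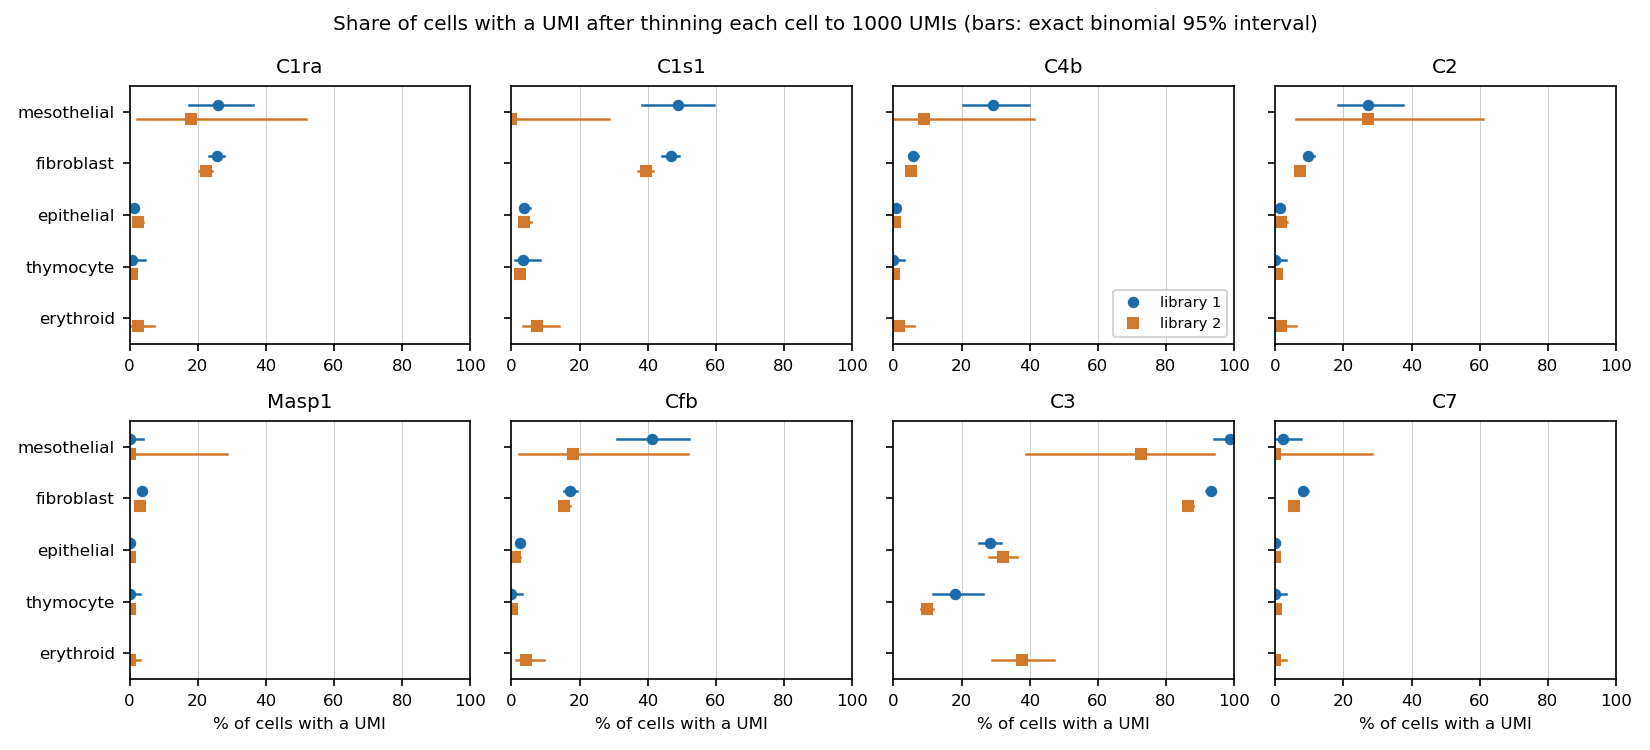
Percent of cells with at least 1 UMI of each gene after thinning to 1000 UMIs, in mesothelial cells, fibroblasts, epithelium, thymocytes and the erythroid cells of library 2, with exact binomial 95% intervals; library 1 is blue and library 2 orange. C3 is found in 93.1% and 86.6% of fibroblasts, C3 also in 37.8% of erythroid cells, and C1s1 in 3.77% and 3.75% of epithelial cells, close to thymocytes.

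Most UMIs of each gene sat in the fibroblast class, which was 43.3% and 23.8% of the kept cells. It held 93.1% and 81.4% of the C7 UMIs and 85.4% and 72.0% of those of Masp1, but 53.8% and 53.0% of those of C2. Mesothelial cells, 2.56% of the cells of library 1, held 23.4% of the C4b UMIs, 19.8% of the C2 UMIs and 18.8% of the Cfb UMIs there. In library 2, with 0.134% mesothelial cells, they held 0.498%, 1.60% and 0.799% of those UMIs. Cells without a class held 14.4% and 32.1% of the C3 UMIs.

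The remaining complement genes, a list of 46 of which 19 were abundant enough to test, are given next. In fibroblasts 9 were called higher and 1 lower than in epithelium, where 27.5% of all genes tested were called higher and 23.3% lower. Among inhibitors, Serping1, the C1 inhibitor, stood at 1365 and 1589 CPM in fibroblasts, against 22.5 and 36.4 CPM in epithelium (log2 difference 6.52, SE 0.20; edgeR adjusted p = 2.28e-18). Cd55, which hastens convertase decay, stood at 233 and 145 CPM in fibroblasts, against 19.8 and 27.7 CPM in epithelium (2.82, SE 0.24; edgeR adjusted p = 5.25e-10).

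Vtn, which encodes vitronectin, stood at 42.8 and 68.4 CPM in fibroblasts, against 0.0914 and 2.03 CPM in epithelium (edgeR adjusted p = 1.39e-06). Colec12, a collectin receptor, stood at 358 and 347 CPM in fibroblasts, against 6.03 and 8.14 CPM in epithelium (edgeR adjusted p = 1.31e-15). Clu, which encodes clusterin, an inhibitor of the terminal complex, was the 1 gene called lower, at 53.2 and 57.2 CPM in fibroblasts, against 360 and 522 CPM in epithelium (-2.28, SE 0.31; edgeR adjusted p = 8.11e-07). Cd59a, another inhibitor of that complex, stood at 5.20 and 19.3 CPM in fibroblasts, against 5.57 and 6.36 CPM in epithelium, higher in library 2 alone, although it passed the test (edgeR adjusted p = 0.0102).

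The C1q genes are C1qa, C1qb and C1qc, whose product starts the classical arm and is made by macrophages in many organs. C1qc was too sparse to be tested. C1qa and C1qb were not called between fibroblasts and epithelium, but some classes were empty and the fit gave no usable SE (451 for C1qa, none for C1qb). The missed calls thus do not show that the levels are alike. From summed UMIs, C1qa was 3.93-fold lower in fibroblasts (2.81 to 5.58) and C1qb 3.69-fold lower (2.68 to 5.15). C1qa stood at 0.547 and 5.41 CPM in fibroblasts, against 3.02 and 24.4 CPM in epithelium. Of the 41 fibroblast UMIs of C1qa in library 2, 21 lay in Inmt/Penk fibroblasts (75.2 CPM, against 0 in library 1), where the macrophage list summed to 6.38 and 53.7 CPM. In Aire mTEC C1qa reached 7.38 and 142 CPM, where a list of macrophage markers summed to 743 and 785 CPM, against 4.79 and 22.9 CPM in fibroblasts; the part of macrophage RNA was not tested.

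Among fibroblast subtypes, the inhibitor Cd55 stood at 461 and 297 CPM in Pi16 fibroblasts, above the 78.7 to 146 CPM of the remaining subtypes (log2 difference 2.03, SE 0.32; edgeR adjusted p = 0.000136). Serping1 was not called in any subtype. Outside the fibroblasts, Clu stood at 1127 and 603 CPM in mesothelial cells, 20.2-fold above fibroblasts, and Vtn at 217 and 180 CPM in mural cells, 3.95-fold above them (edgeR adjusted p = 3.3e-07 and 0.00981).

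The genes most like each member over the 32 sums of 16 classes in 2 libraries were taken from 7273 genes with a mean of at least 20 CPM, by Pearson's r of log2(CPM + 1), as a description with no test, since sums of 1 library share its depth and preparation. C3 was most like Abi3bp, Dcn and Adam33 (r from 0.918 to 0.922), C1s1 most like Nbl1, Lama2 and Mxra8 (0.924 to 0.957), and C1ra most like Serpinh1, Bicc1 and Nbl1 (0.939 to 0.95). C4b was most like Loxl1, Cdon and Col1a1 (0.916 to 0.926), and C7 most like Svep1, Angptl1 and Kdelr3 (0.929 to 0.961). Cfb was most like St3gal1, Plscr4 and Fbln2 (0.845 to 0.889), C2 most like Cpq, Gstt1 and Ctsf (0.796 to 0.835), and Masp1 most like Inmt, Dkk2 and Gdf10 (0.820 to 0.899), of which Inmt and Gdf10 were used to gate a subtype. Dcn and Col1a1, named for C3 and C4b, were likewise used to gate the fibroblasts. Between members, C1s1 and C1ra were the most alike pair (0.91) and C2 and Masp1 the least (0.447); C2 and Cfb, which are 85 bases apart, had 0.490.

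Near copies of 3 members are annotated. C1s2, a copy of C1s1 with 86.7% identity (by edit distance) over its transcript and 73.8% over the last 500 bases, had 37 and 11 UMIs, against 13746 and 8937 for C1s1. C1rb, a copy of C1ra with 80.0% and 45.2% identity, had 7 and 3 UMIs, against 6264 and 4073 for C1ra. C4a, a copy of C4b 65209 bases away, is annotated as a processed transcript, and how reads shared by C4a and C4b were counted is not given in the sources used here, so the C4b level is uncertain to that extent.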

How the data were processed

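The data were whole-number UMI counts per gene and cell barcode for 2 libraries, deposited by the authors as filtered matrices; mm10, Cell Ranger 7 and Seurat 4 stand in the submitters' processing notes, and cellranger 6.0.0 in the matrix headers. Barcodes under 500 genes, under 1000 UMIs or above 10% mitochondrial UMIs were dropped. A lineage needed 40% of its markers and 2 times the share of any other lineage's list; mesothelium was called first, at 1.5 times and without comparison with the fibroblast and epithelial lists, a margin set after cell counts were seen so that library 2 reached 10 cells. Subtypes and states needed at least 3 markers and 50% of their list. No doublet caller was run. The gate leaves out cells in which another lineage comes within the margin, but keeps cells with fewer markers of another lineage. Mesothelial cells were not screened against the fibroblast and epithelial lists at all, and doublets may remain.

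Counts were summed per class and library (classes with at least 10 cells in each library: 16 classes, 32 sums, 15 residual degrees of freedom, 11838 genes after filterByExpr) and tested with edgeR 4.0.16 (TMM, quasi-likelihood, library as a block, Benjamini-Hochberg over all genes tested) in R 4.3.3, which was first tested on simulated data. The block pairs the classes because every class of a library comes from the same cell suspension. DESeq2 1.42.0, other filters, gates and depths and leaving out a library were alternatives. Shares of cells were read after thinning to 1000 UMIs, in Python 3.11.15 with scipy 1.17.1; intervals are at 95%. The genes described are all 8 members, the listed complement genes with the largest called differences, 7 fixed regulators and initiators, of which 1 is not reported here, and the 3 most alike genes of each member; the members and all lists were chosen with earlier results of these data known. Wild-type data were not analysed here.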

Additional observations from a re-analysis of the deposited data

How the results depend on the processing

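All 8 members stayed higher in fibroblasts than in epithelium in each of 9 alternatives. The number of members called changed elsewhere. For mesothelial cells against fibroblasts it was 5, and 2 with DESeq2 and 3 with the looser gate. Over all genes, 987 were called higher and 843 lower of 11838 in the main fit. DESeq2 gave 1113 and 864 of 11838, and the looser gate 1091 and 802 of 11561. Over the fibroblast subtypes the members had 3 calls, and 1 with DESeq2, 10 with no low-count filter, 7 with the stricter gate and 6 without cells holding a thymocyte UMI. The stricter gate and the setting without thymocyte UMIs left no Postn comparison, so their counts are over fewer comparisons. Calls over all genes moved too. In Cxcl14/Col15a1 fibroblasts 259 genes were called higher and 107 lower of 11838 in the main fit. This became 439 and 258 of 11386 with the stricter gate, and 474 and 159 of 24613 with no low-count filter. Over the epithelial states the members had 12 calls, and 7 with the looser gate, which brought in microfold and secretory cells as further states. Over all genes, Aire mTEC had 2307 higher and 549 lower calls in the main fit, and 1658 and 315 with the looser gate. Ccl21a mTEC had 1366 and 343, and 1616 and 261 with the looser gate. The fit with no replicate block (no pairing of classes by library) gave 2 calls over the subtypes, having lost C4b in Inmt/Penk fibroblasts, and 8, 5, 6, 6 and 12 in the fibroblast, mesothelial, mural, endothelial and epithelial state comparisons, with no other call changed.

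Small differences changed sign. In log2, C1ra in mesothelium was 0.04 with DESeq2 and C3 there was -0.08 with the looser gate. In Pi16 fibroblasts C1ra was -0.01 with DESeq2, -0.11 with the stricter gate and -0.04 with a lineage margin of 1.5, an alternative chosen after seeing the data, and C3 was -0.00, -0.07 and -0.03. In Cxcl14/Col15a1 fibroblasts C1ra was -0.11 and Cfb -0.02 with the stricter gate. In Inmt/Penk fibroblasts C3 was -0.07 with the stricter gate, and without cells holding a thymocyte UMI C3 was -0.39 and C1ra -0.34. In Postn fibroblasts C4b was 0.19 with the looser gate and 0.07 with the margin of 1.5. Leaving out a library in turn gave -0.31 to 1.74 for C4b in mesothelium, -1.49 to 2.14 for Cfb in cTEC and -0.79 to 2.03 for C3 in Aire mTEC, as values with no test. Of 76 log2 differences, 30 moved by more than the spread between the libraries without library 1 and 3 changed sign; 31 moved without library 2. The cause was not tested.

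Thinned shares of fibroblasts, over both libraries, moved for C4b to 5.94% with at least 300 genes and 500 UMIs, and without cells holding a thymocyte UMI to 26.5% for C1ra, 18.4% for Cfb and 4.25% for Masp1. Too few cells were left for the mesothelial comparison under the stricter gate and without thymocyte UMIs, for the mural one at 2000 UMIs and without thymocyte UMIs, and for the epithelial states without thymocyte UMIs. Postn fibroblasts also fell out under the stricter gate (2 cells in library 2) and without thymocyte UMIs (1 cell). Dividing TEC fell out at 2000 UMIs (8 cells in library 2) and under the stricter gate (7 cells). The remaining subtypes and states were then set against a mean of fewer classes. Depth limits the mural, mesothelial and endothelial values of genes with 10 or fewer UMIs.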
